A study of Mus musculus with 6 samples.

Results

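The genes described here encode 9 transcription regulators that B cells use: the ETS proteins PU.1 (Spi1), Spi-B (Spib), Ets1 and Fli1, the interferon regulatory factors Irf4 and Irf8, and the octamer group of Oct-1 (Pou2f1), Oct-2 (Pou2f2) and their coactivator OBF-1, also called OCA-B (Pou2af1). They were chosen by name, as 9 of the 21883 protein-coding genes of the gene table used. Their open chromatin was read from every ATAC-seq peak that lies in one of these genes or no more than 50 kb away. The peaks of all libraries merged into 207 distinct regions at these genes, of 70174 regions in all.

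ATAC-seq maps open chromatin by letting the Tn5 transposase cut accessible DNA and insert sequencing adapters. The cells were splenic immature B cells, sorted as B220+CD93+, from Tcrd-GDL mice, a reporter strain in which γδ T cells carry the receptor for diphtheria toxin (DTx). In the DTx group (3 libraries) mice received 2 intraperitoneal toxin injections of 15 ng per g body weight, 48 h apart, and cells were taken on day 8 after the first one. The other group (3 libraries) came from untreated mice of the same strain. The question was how the chromatin of these cells differs once γδ T cells have been depleted. Depletion and any other effect of the toxin or of the injections cannot be told apart, because the untreated mice are not said to have been injected. The labels do not say whether the libraries of a group came from separate mice. A p-value here therefore sets a group difference against the spread of these samples only, and that spread may be technical.

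ETS proteins bind DNA around a GGAA core. PU.1 and Spi-B are closely related, share targets, and are needed for B cell development and for signalling from the B cell receptor, while Ets1 and Fli1 act in lymphoid and endothelial cells, and Ets1 is known to restrain the formation of plasma cells in mice. Irf4 and Irf8 bind DNA weakly by themselves and are recruited by PU.1 or Spi-B to composite sites. Oct-1 and Oct-2 bind the octamer found in immunoglobulin promoters, and OBF-1 joins them there in B cells.

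Each library has its own deposited peak list. The lists held 44661, 56266 and 60811 peaks in DTx replicates 1, 2 and 3, against 36760, 42504 and 56503 in untreated replicates 1, 2 and 3. The sources used here give no read totals, so depth is unknown. DTx replicate 1 and untreated replicate 3 have the layout of MACS2's narrow mode and the other 4 that of its broad mode, so each group holds 1 narrow list and 2 broad lists. Each peak's scores are the authors' own, and here they only rank peaks within a list. A percentile below is the rank of a peak's −log10 q in its library's list, where 100 is the strongest peak. Percentiles given gene by gene are from the deposited lists, whose lengths differ. Gene-end presence and regions confined to a group were also read first in the deposited lists. Peak counts and rank fits between groups used lists of equal length, cut in each library to the 36760 peaks that rank highest by −log10 q. The label of the cells was set against marker genes by asking for a gene-end peak, one no further than 1 kb from an end of the gene. A set of 10 B cell markers had one in all 6 libraries, among them Ptprc (B220) and Cd93, the genes of the sort. Such a peak was seen in every library at 1 of 7 T cell markers (Cd3d) and at 1 of 8 myeloid markers (Cebpa). The numbers per library were 1 to 3 T cell and 2 to 3 myeloid markers in DTx libraries, against 1 to 2 and 2 to 3 in untreated libraries. Of 6 dendritic cell markers 5, of 4 erythroid markers 2 and of 4 plasma cell markers 3 had one in every library of both groups. Cd8a, Zap70, Lyz2, Itgax, Gata1 and Hbb-bs had none in any library.

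The listed promoter sequences set out where these genes start and whether open chromatin lies there. A RefSeq promoter window, from 250 bases before to 50 after an annotated start on GRCm38.p6 (the mm10 build of the lists), was listed for 6 of the 9 genes: Spib, Irf4, Irf8, Pou2f1, Pou2f2 and Pou2af1, with 9 windows in all. None was listed for Spi1, Ets1 and Fli1. Of the 9 windows, 6 lay under a region called in all 6 libraries, against 36.4% of 32851 windows of all genes. The following 5 were chosen because they show the contrasts among the promoters. They are the Pou2f2 window, the single one with a match to the searched motifs, the Spib window, under no peak, the first Irf8 window, rich in G and C and under a peak, the window inside Pou2f1, poor in G and C but under a peak, and the Pou2af1 window, under the highest-ranked gene-end peak of the 9 genes. Capitals mark motif matches.
Pou2f2, chr7:25132411-25132710, minus strand: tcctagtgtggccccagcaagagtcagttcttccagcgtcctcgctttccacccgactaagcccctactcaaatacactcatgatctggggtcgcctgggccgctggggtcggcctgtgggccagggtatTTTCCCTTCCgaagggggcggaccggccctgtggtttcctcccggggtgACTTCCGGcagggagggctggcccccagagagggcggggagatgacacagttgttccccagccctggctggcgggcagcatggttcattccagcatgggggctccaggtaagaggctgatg
Spib, chr7:44532022-44532321, minus strand: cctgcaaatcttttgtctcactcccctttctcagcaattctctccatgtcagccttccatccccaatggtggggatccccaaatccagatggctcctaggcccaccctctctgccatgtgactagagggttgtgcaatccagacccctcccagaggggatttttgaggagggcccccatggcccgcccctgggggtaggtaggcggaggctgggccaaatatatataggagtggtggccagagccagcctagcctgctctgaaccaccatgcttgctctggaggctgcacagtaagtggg
Irf8, chr8:120736108-120736407, plus strand: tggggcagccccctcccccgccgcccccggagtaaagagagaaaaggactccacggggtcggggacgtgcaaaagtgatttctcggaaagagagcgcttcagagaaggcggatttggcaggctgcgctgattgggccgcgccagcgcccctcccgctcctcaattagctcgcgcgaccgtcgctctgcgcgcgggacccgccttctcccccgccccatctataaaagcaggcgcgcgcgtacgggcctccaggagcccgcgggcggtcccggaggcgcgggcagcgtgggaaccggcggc
Pou2f1 internal, chr1:165934899-165935198, minus strand: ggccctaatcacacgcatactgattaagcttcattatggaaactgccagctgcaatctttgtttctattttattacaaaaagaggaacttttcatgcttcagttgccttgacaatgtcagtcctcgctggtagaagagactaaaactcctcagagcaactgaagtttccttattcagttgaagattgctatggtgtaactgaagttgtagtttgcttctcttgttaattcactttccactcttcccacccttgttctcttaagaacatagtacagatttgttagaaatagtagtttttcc
Pou2af1, chr9:51213440-51213739, plus strand: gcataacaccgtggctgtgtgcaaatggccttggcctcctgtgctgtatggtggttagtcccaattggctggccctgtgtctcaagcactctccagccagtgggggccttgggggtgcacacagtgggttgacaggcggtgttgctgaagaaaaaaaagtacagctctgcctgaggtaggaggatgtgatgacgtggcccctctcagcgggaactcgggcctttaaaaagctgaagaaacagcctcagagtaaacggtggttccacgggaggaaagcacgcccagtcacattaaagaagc

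The searched motifs, each on both strands, were GAGGAAGT (of the PU.1 and Spi-B kind), CCGGAAGT (Ets1 and Fli1 kind), an IRF motif (GAAA, any 2 bases, GAAA), a composite of ETS and IRF (GGAA, any 2 bases, GAAA) and ATGCAAAT (octamer). They were present in 3.20%, 3.89%, 3.44%, 2.72% and 1.74% of all 300-base windows, in that order, and GAGGAAGT and CCGGAAGT share the letters GGAAGT. The Pou2f2 window held both matches found among the 9. CCGGAAGT was read on the opposite strand, as ACTTCCGG at bases 180 to 187 of the window, and the composite motif also on the opposite strand, as TTTCCCTTCC at bases 131 to 140. The 9 windows differed widely in base composition. The first Irf8 window was 70.0% G and C and the upstream Pou2f1 window 69.7%, while the window inside Pou2f1 shown above was 38.0% and another Pou2f1 window, under no region, 28.7%. The remaining 5 lay between 54.7% and 64.0%, beside a median of 52.7% over all windows. A match is a description of these letters, and no match says only that these exact letters are not in the window.

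The neighbourhoods of these genes, except that of Pou2af1, were dense in open chromatin. Of the 207 regions, 94 (45.4%) were shared by the 6 libraries and 40 (19.3%) belonged to 1 library, close to the 44.1% and 18.2% of all regions. The 4 ETS genes had 53 of 106 regions in all 6 libraries, the IRF genes 18 of 43, and the octamer group 23 of 58. Counted per 100 kb of gene and flanks, regions called in all 6 libraries numbered 10.4 at Spib, 9.93 at Ets1, 7.64 at Irf4, 7.48 at Irf8, 6.78 at Fli1, 4.65 at Pou2f2, 4.63 at Pou2f1, 4.50 at Spi1 and 2.37 at Pou2af1. The median over all genes was 2.17 and the upper quartile 4.15, so that all 9 lay above the median and 8 above the quartile. At Spib, 6 of its 11 regions in all 6 libraries lay at the ends of neighbouring genes such as Emc10, Nr1h2 and Pold1, at Spi1 2 of 6 (Psmc3 and Slc39a13), and at Pou2f2 2 of 9 (Dedd2 and Zfp526). At the other 6 genes none did. Regions called in all 6 libraries were 874 bp wide at the median, against 890 bp over the series.

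**Figure D1:**
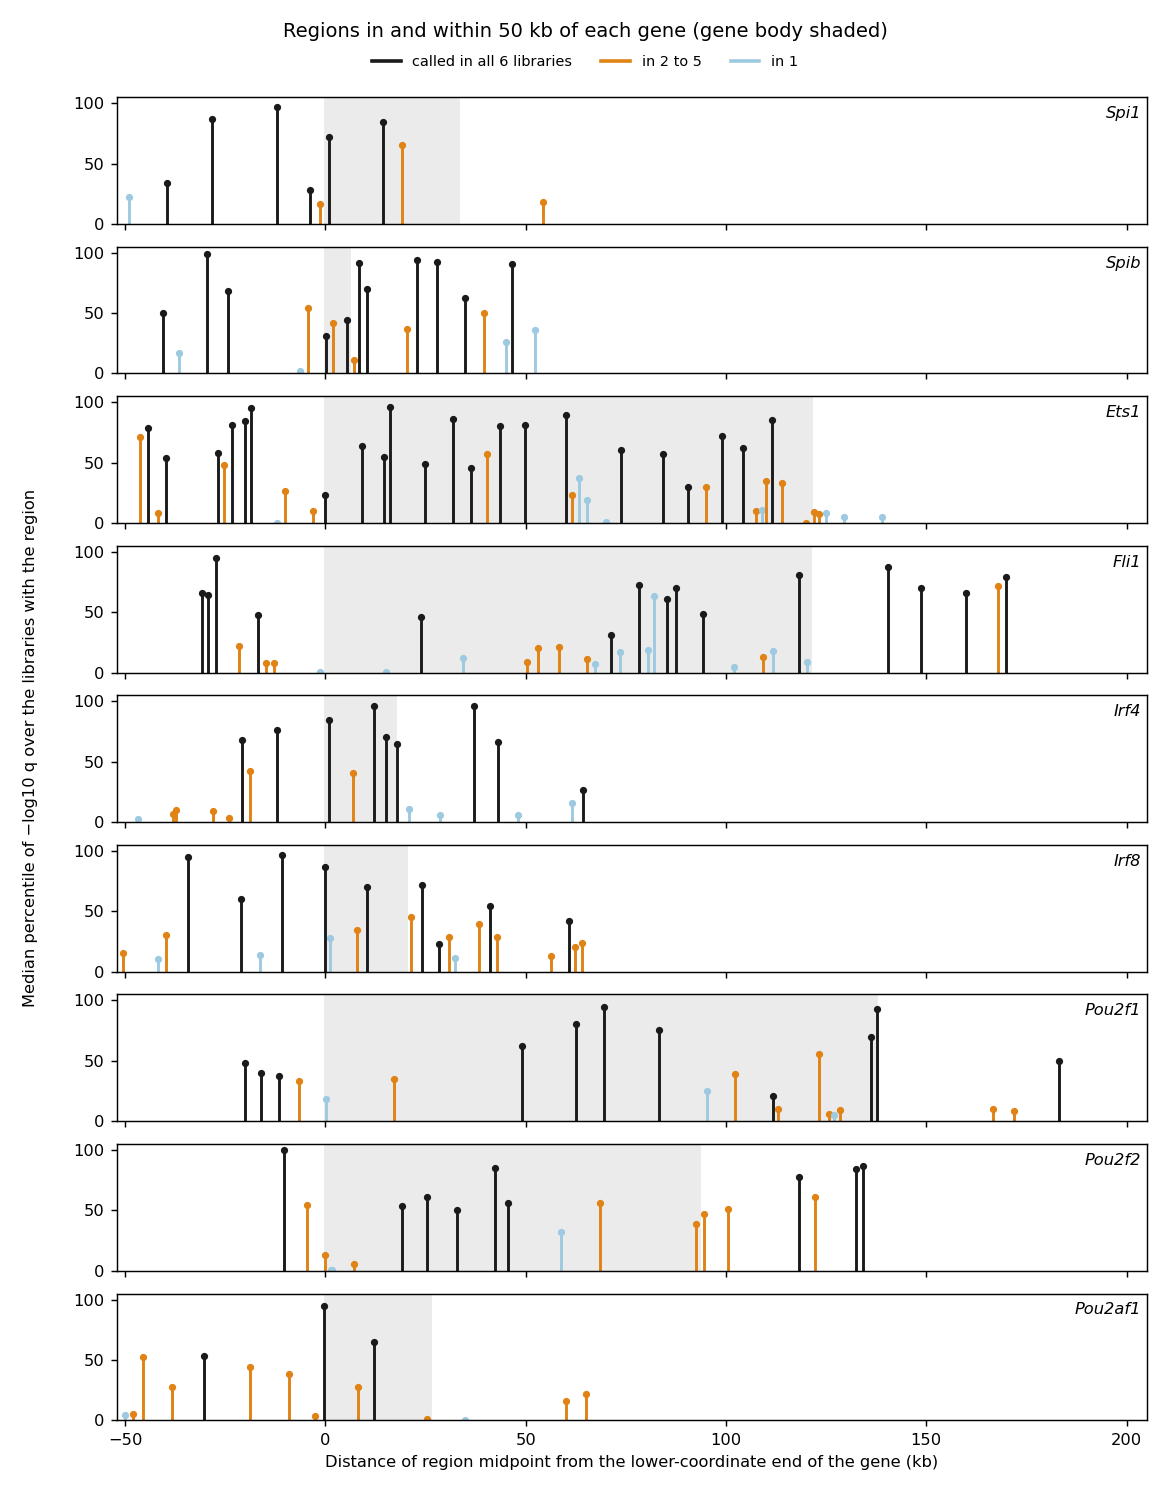
Regions in and around each of the 9 genes, by the distance of the region's midpoint from the gene's lower-coordinate end in kb; the height is the median percentile of −log10 q over the libraries that have the region, and shading marks the gene. Black stems (all 6 libraries) number 22 in and around Ets1 and 3 at Pou2af1.

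At Spi1, the highest-ranked gene-end region, chr2:91082808-91083619, lay inside the lower-coordinate end. Its percentiles were 62.0, 78.6 and 75.4 in the DTx libraries, against 68.3, 67.1 and 77.5 in the untreated ones. The groups overlapped, and over all 6 libraries the median of 71.9 was at or above that of 27.3% of the 10772 genes with a gene-end peak in every library. A stronger region in the gene, chr2:91096305-91097392, ranked at 85.5, 83.8 and 88.2 in DTx libraries, against 75.3, 79.9 and 91.1 in untreated libraries. The midpoints of the 2 regions were 13.6 kb apart. In mice, Spi1 is known for a distal upstream regulatory element that acts together with its promoter, and the gene table used here marks neither, so the regions are given by position only.

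Spib had weak peaks at its own ends and a strong one just beyond. The region at its upper-coordinate end, chr7:44531276-44531586, ranked at 14.7, 60.1 and 65.1 in DTx libraries, against 31.5, 45.6 and 43.7 in untreated libraries. DTx replicate 1 was the lowest of the 6 and the other DTx libraries the highest. Over the 6 libraries its median, 44.6, was at or above that of 7.63% of genes. The promoter window printed above was under no region in any library, and the nearest region was 435 bp away. The region chr7:44534060-44534837, which begins 1.97 kb beyond the upper end of the gene, ranked at 83.0, 93.1 and 94.8 in DTx libraries, against 86.6, 93.1 and 90.6 in untreated libraries, again with overlap.

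Ets1 and Fli1 stand next to each other on chromosome 9, 92.8 kb apart, and together carried 76 of the 207 regions, of which 2 fell in the windows of both. The gene-end region of Ets1, chr9:32635626-32636823, was broad and weak. It ranked at 25.6, 21.8 and 24.6 in DTx libraries, against 6.90, 21.1 and 42.8 in untreated libraries, and its median of 23.2 was at or above that of 1.85% of genes. The strong peaks lay elsewhere: chr9:32651828-32652853, inside the gene, ranked at 97.8, 95.9 and 98.2 in DTx libraries, against 96.3, 95.7 and 95.5 in untreated libraries. Another, chr9:32617282-32618023, its midpoint 18.6 kb before the lower end, ranged over 95.5 to 97.9 in DTx libraries and over 93.4 to 95.4 in untreated libraries. In lists of equal length it had 94.5, 95.4 and 96.6 in DTx libraries, against 95.4, 93.0 and 89.9 in untreated libraries, and the groups overlapped.

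Fli1 had almost no peak at the ends of its annotated extent. A gene-end peak was absent from all 3 DTx libraries and from untreated replicates 1 and 2, and untreated replicate 3 had one at the percentile of 9.14. A wide region of 2311 bp inside the gene, chr9:32539316-32541626, which stops 1.81 kb short of the upper end, was called in every library, at 90.0, 79.8 and 82.2 in DTx libraries, against 75.9, 69.7 and 87.1 in untreated libraries. Its highest-ranked region, chr9:32394629-32395205, lay outside the gene, its midpoint 27.3 kb before the lower end, and ranked at 96.5, 96.6 and 97.6 in DTx libraries, against 90.9, 93.7 and 93.0 in untreated libraries. All DTx libraries stood above all untreated ones there, and the comparison in lists of equal length follows further on.

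Irf4, which is needed for class switching and for plasma cells, had a gene-end region of 2651 bp, chr13:30748781-30751431, covering its promoter window. It ranked at 85.5, 83.1 and 76.2 in DTx libraries, against 88.2, 78.6 and 87.8 in untreated libraries. Its median of 84.3 equalled or exceeded that of 49.8% of genes. A pair of regions ranked higher. The one in the gene, chr13:30761075-30761870, ranked at 95.8, 97.8 and 98.6 in DTx libraries, against 95.8, 96.8 and 95.0 in untreated libraries. The other, chr13:30785795-30786734, had its midpoint 19.3 kb beyond the upper end, with ranges of 94.8 to 97.7 in DTx and 91.3 to 98.6 in untreated libraries.

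Irf8, a factor of B cell and dendritic cell development, had its gene-end region at chr8:120735835-120736799, over the first promoter window. It ranked at 83.7, 90.6 and 87.9 in DTx libraries, against 74.8, 85.7 and 93.1 in untreated libraries, and the untreated libraries enclosed the DTx ones. Upstream of it stood a stronger pair. The region chr8:120724842-120726005, centred 10.9 kb before the gene, ranked at 96.9, 96.9 and 98.4 in DTx libraries, against 93.5, 95.9 and 98.1 in untreated libraries. The region chr8:120701614-120702495, centred 34.3 kb before it, ranged over 90.2 to 97.9 in DTx libraries and over 90.8 to 95.4 in untreated libraries. The limit of 50 kb fell among weak regions at this gene: the one just inside, at 49.9 kb, was called in 5 libraries at a percentile of at most 24.4, and the one just outside, at 50.6 kb, in 5 libraries at 46.8 or less.

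Pou2f1, expressed in most cell types, had strong peaks at its upstream end and at 1 of the 2 annotated starts within the gene, while the other, chr1:165953022-165953321, lay under no region in any library. The gene-end region, chr1:166002221-166003607, ranked at 87.2, 94.3 and 93.0 in DTx libraries, against 95.5, 93.2 and 90.7 in untreated libraries. The internal region chr1:165933896-165935501, which covers the promoter window of low G and C content shown above, ranked at 93.2, 95.8 and 96.7 in DTx libraries, against 93.1, 93.8 and 95.3 in untreated libraries. Both regions overlapped between groups, and every value of either lay between 87.2 and 96.7.

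Pou2f2 had the strongest region of the set. It is chr7:25076712-25077498, centred 10.2 kb beyond the lower-coordinate end, and ranked at 99.3, 99.9 and 99.9 in DTx libraries, against 99.4, 99.7 and 99.8 in untreated libraries. The annotated start, inside the gene's extent, lay under chr7:25132258-25133440, which was of middle rank, at 45.5, 59.1 and 66.6 in DTx libraries, against 43.7, 53.5 and 73.9 in untreated libraries. At the outer ends of the gene peaks were weaker still. The highest gene-end peak was absent from DTx replicate 1 and stood at 47.3 and 58.0 in DTx replicates 2 and 3, against 33.5, 33.3 and 53.2 in untreated libraries.

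Pou2af1 combined the fewest regions called in all 6 libraries, 3 of 15, with the highest gene-end rank of the 9 genes. The region chr9:51212837-51214101, over its promoter window, ranked at 90.5, 97.9 and 97.1 in DTx libraries, against 94.5, 95.0 and 94.3 in untreated libraries. The untreated libraries lay within 1 point of each other and inside the range of the DTx libraries. The median of 94.8 was at or above that of 79.8% of genes, beside a median over those genes of 84.4. Its other main region, chr9:51225363-51226107 in the gene, varied far more between libraries of one group, with 61.8, 60.2 and 84.9 in DTx libraries, against 34.7, 70.9 and 68.2 in untreated libraries.

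**Figure D2:**
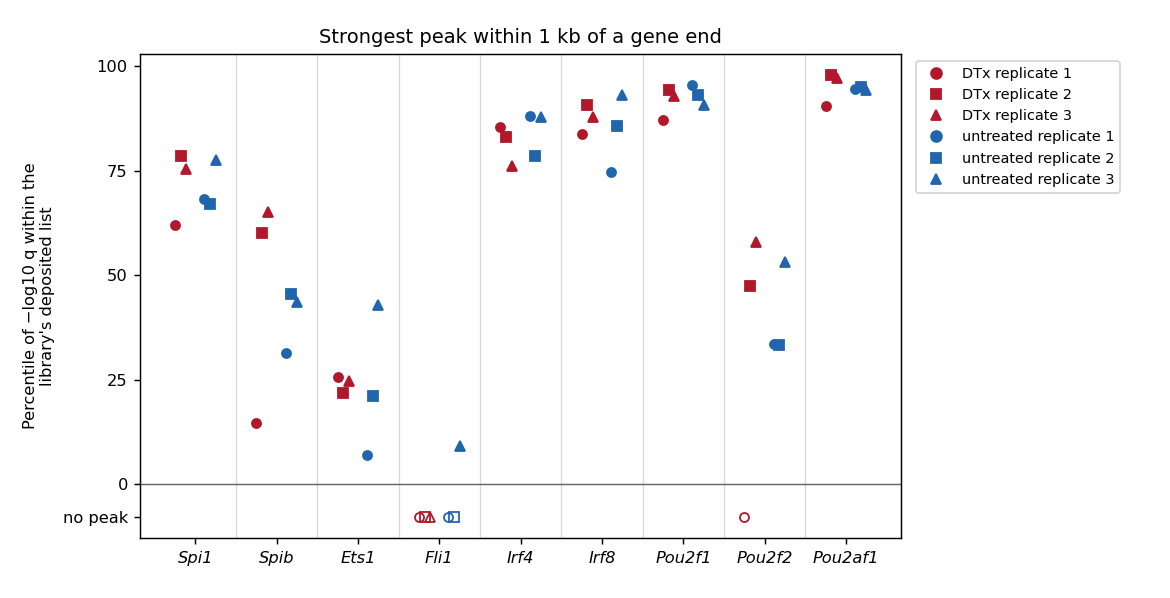
Percentile of −log10 q, within each library's deposited list, of the strongest gene-end peak of each gene; each point is 1 library, DTx in red and untreated in blue, and open points have no peak. The groups overlap at every gene with peaks in both, Pou2af1 and Pou2f1 stand highest, and Fli1 has a peak in untreated replicate 3 alone.

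The order of the genes by median gene-end percentile was Pou2af1 (94.8), Pou2f1 (93.1), Irf8 (86.8), Irf4 (84.3), Spi1 (71.9), Spib (44.6) and Ets1 (23.2). Pou2af1 and Pou2f1 overlapped in their ranges over the 6 libraries, as did each further pair of neighbours in this order down to Spib, at 14.7 to 65.1, and Ets1, at 6.90 to 42.8. Library by library, Irf4 stood above Spi1, and Spi1 above Spib, in all 6, while each other pair of neighbours changed order in some library. Fli1 and Pou2f2 lacked a gene-end peak in some library and were not placed. Thus 7 of the 9 genes had one in all 6 libraries, beside 49.2% of all genes.

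The presence of a gene-end peak was compared first in the deposited lists. Of the 9 genes, 7, 8 and 8 had one in DTx replicates 1, 2 and 3, against 8, 8 and 9 in untreated replicates 1, 2 and 3, a mean of 7.67 ± 0.58 in DTx and 8.33 ± 0.58 in untreated libraries (SD, n = 3 each). The difference came from Fli1 and Pou2f2, which had one in fewer DTx than untreated libraries. Over all genes 2.36% did so, and 5.02% had one in more DTx libraries, which none of the 9 did. A gene-end peak in all DTx and no untreated libraries (0.0366% of genes), or the reverse (0.00457%), was found at 0 of the 9. Both differences touch the narrow-mode lists: DTx replicate 1 lacked the peak at Pou2f2 and untreated replicate 3 alone had that at Fli1. Within the broad-mode lists the difference was 0, and the part of the list layout in it was not tested. In lists of equal length, 6, 7 and 7 of the genes had one in DTx libraries, against 8, 8 and 8 in untreated libraries, and the groups did not overlap. Ets1 then kept one in DTx replicate 1 and in every untreated library, and Spib and Pou2f2 in DTx replicates 2 and 3 and in every untreated library. These 3 genes thus had one in fewer DTx than untreated libraries, beside 5.07% of all genes, and 0 of the 9 had one in more DTx libraries, beside 2.03%. The lowest percentile kept in equal-length lists was 17.7, 34.7 and 39.6 in DTx libraries, against 0, 13.5 and 34.9 in untreated libraries. These cuts overlapped between groups, and their part in the counts was not tested.

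The rank of gene-end peaks was compared with limma over the 10172 genes with one in all 6 equal-length lists, which took in 5 of the 9: Spi1, Irf4, Irf8, Pou2f1 and Pou2af1. Spib, Ets1, Fli1 and Pou2f2 did not pass that filter. None of the 5 passed an adjusted p of 0.05, nor did any gene (0% called), and the adjusted p of limma was 1 for each of the 5. At an unadjusted p under 0.05 were 356 genes (3.50%) and 0 of the 5. Irf4 had the largest difference, −9.23 ± 5.55 percentile points (SE, n = 3 each, DTx minus untreated), from 82.4, 74.1 and 60.6 in DTx libraries, against 88.2, 75.3 and 81.3 in untreated ones. That size rested on single libraries: it was −3.36 without DTx replicate 3, then smaller than at Spi1 (−4.67), and −14.3 without DTx replicate 1, −5.92 without untreated replicate 1 and −14.4 in the broad-mode lists. The others were −5.06 ± 5.52 at Spi1, −3.07 ± 2.90 at Pou2f1, −0.613 ± 4.06 at Irf8 and 0.146 ± 2.13 at Pou2af1, beside a median of −1.30 over all genes fitted. In none of the 5 did the groups stand apart, beside 1.22% of genes with all DTx libraries above all untreated ones and 7.81% with all below. On simulated data, the gene-end fit recovered 44.0% of shifts of 20 points and 86.0% of shifts of 40 points. These shares are over genes drawn from the whole fit, not over the 5, whose SEs differ. A percentile cannot pass the top of its scale. The untreated means of Irf4, Irf8, Pou2f1 and Pou2af1 were 81.6, 82.6, 91.1 and 93.3 in equal-length lists. A rise of 20 points from there cannot occur, so the shares do not apply to rises at these genes. Shifts under 20 points were not simulated, and true differences of that size may have been missed.

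The numbers of peaks in each gene and its flanks of 50 kb, in lists of equal length, overlapped between groups at 8 of the 9 genes. Summed over the genes they were 104, 118 and 120 in DTx libraries, against 111, 111 and 118 in untreated libraries, or 114 ± 8.72 and 113 ± 4.04 (SD, n = 3 each). Spi1 was the exception, with 5, 5 and 5 peaks in DTx libraries, against 6, 7 and 7 in untreated libraries. Its exact two-sided permutation p of 0.1 is the smallest that 3 libraries against 3 allow, and its adjusted p over 17580 genes was 1. Over those genes, 0.819% had all DTx libraries below all untreated ones and 1.38% had all above. In the deposited lists the Spi1 counts were 6, 8 and 9 in DTx libraries, against 6, 7 and 9 in untreated libraries, and overlapped. Ets1 had the most peaks, with 23, 24 and 26 in DTx libraries, against 23, 23 and 25 in untreated libraries, and Pou2af1 among the fewest, with 5, 6 and 6 against 5, 6 and 7.

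**Figure D3:**
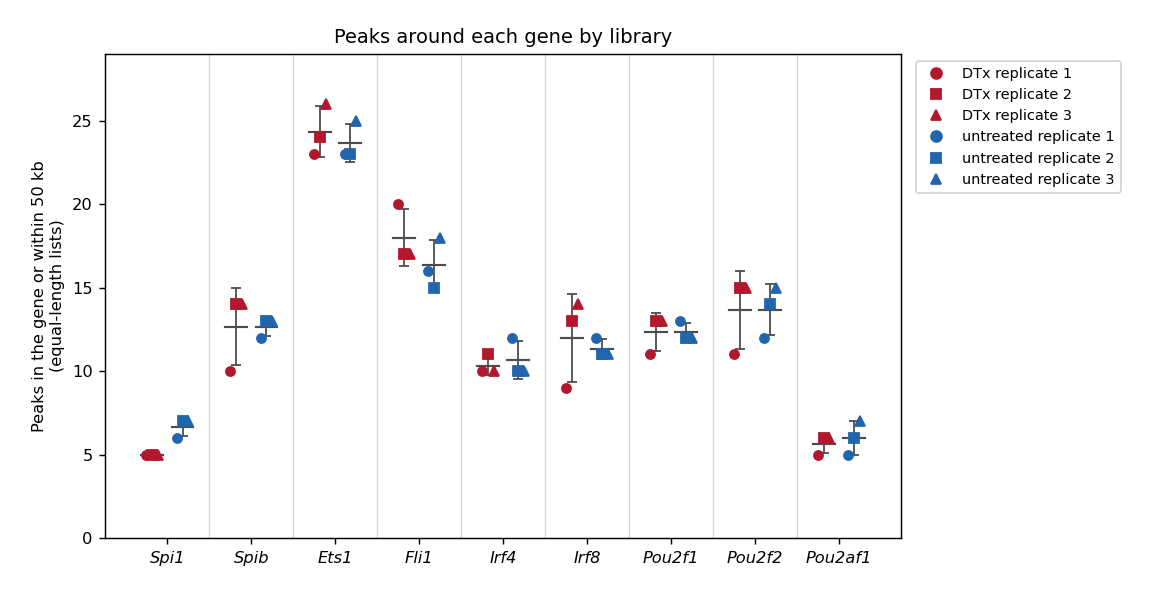
Peaks in each gene and its flanks of 50 kb by library, in lists of 36760 peaks; points are libraries (DTx red, untreated blue), and lines and bars are the mean ± SD of 3 libraries. Only at Spi1 do the DTx libraries (5, 5 and 5) all stand below the untreated ones (6, 7 and 7).

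No region at the 9 genes was confined to a group in the deposited lists: 0 of 207 were present in every DTx library and absent from every untreated one, beside 0.705% of all regions, and 0 the other way round, beside 0.0242%. Among the broad-mode lists alone, 28 of the 207 were in both DTx libraries and neither untreated one, beside 11.8% of all regions, and 0 the other way round, beside 0.0698%. In lists of equal length 48709 regions of the series were counted, and how many of them lie at the 9 genes is not given here. At the 9 genes 1 region was then called in DTx libraries only, beside 0.372% of the 48709, and 2 in untreated libraries only, beside 0.579%. The first, chr7:44546323-44546611 at Spib, ranked at 34.4, 39.0 and 61.5 in the deposited DTx lists and at 33.1 in untreated replicate 3, and was absent from untreated replicates 1 and 2. The other 2 were chr2:91078131-91078796, centred 3.91 kb before Spi1, and chr7:44525416-44526779, at the lower end of Spib and of Mybpc2. Both were called in all 6 deposited lists. The Spi1 neighbour ranked at 8.11, 34.4 and 36.1 in DTx libraries, against 16.0, 22.4 and 40.7 in untreated libraries, and the Spib end at 10.1, 30.3 and 35.4 in DTx libraries, against 19.0, 32.5 and 37.9 in untreated libraries. These ranks overlapped between groups. They lay below the lowest percentile kept in equal-length lists, given above, in the DTx libraries and above it in the untreated ones.

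A fit of the same kind over all 26150 regions called in every equal-length list, added after the data had been seen, held 85 regions at the 9 genes. None passed an adjusted p of 0.05, nor did any region of the series (0% called), and the adjusted p of limma was 0.9999 for every region at the 9 genes. At an unadjusted p under 0.05 were 6 of the 85 (7.06%), beside 3.46% of all. The DTx mean was the higher one in 45 of the 85 (52.9%) and in 44.7% of all regions, with a median difference of 0.205 percentile points against −0.485 over all. DTx was higher in 28 and lower in 19 of the ETS regions, and in 10 and 6 of the IRF regions. In the octamer regions it was higher in 7 and lower in 15. Genes of one family differed too. Ets1 and Fli1 together had 21 higher and 13 lower, Spib 6 and 3, and Spi1 1 and 3. Pou2af1 had 3 higher and 0 lower, Pou2f1 3 and 7, and Pou2f2 1 and 8. The difference between families was not tested.

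All DTx libraries stood above all untreated ones at 5 of the 85 regions (5.88%, beside 3.27% of all), and below at 2 (2.35%, beside 5.71%). These 7 regions were picked out after their values were seen. All 5 higher ones lay in the stretch of chromosome 9 that holds Fli1 and Ets1, where 34 regions were fitted. The widest difference was at chr9:32645099-32645872, inside Ets1, with equal-length percentiles of 59.9, 56.4 and 69.7 in DTx libraries, against 41.4, 40.3 and 39.8 in untreated libraries, a difference of 21.5 ± 6.76 points (SE, n = 3 each). The untreated libraries lay within 2 points of each other. A second region in Ets1, chr9:32667762-32668660, had 89.6, 81.6 and 88.6 in DTx libraries, against 73.7, 74.5 and 76.7 in untreated libraries, a difference of 11.7 ± 3.61 points. The Fli1 region named above, chr9:32394629-32395205, had 95.8, 94.7 and 96.0 in DTx libraries, against 90.9, 92.7 and 89.3 in untreated libraries, which differ by 4.54 ± 1.59 points near the top of the lists.

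The remaining higher regions were chr9:32507164-32507789 inside Fli1, at 53.6, 51.5 and 66.1 in DTx libraries, against 45.4, 47.2 and 39.6 in untreated libraries, and chr9:32591765-32592325 between the genes, at 73.6, 72.7 and 78.9 against 60.9, 70.9 and 69.0. The region between the genes overlapped between groups in the deposited lists. Other regions of the stretch did not follow: the DTx mean was lower at 13 of the 34 fitted, and the lowest difference there was −16.6 points. The regions lower in DTx were chr13:30791920-30792731, centred 25.3 kb beyond Irf4, and chr1:165844432-165845664, centred 20.1 kb before the lower end of Pou2f1. The Irf4 neighbour had 55.8, 52.0 and 41.1 in DTx libraries, against 64.6, 71.8 and 68.8 in untreated libraries, a difference of −18.8 ± 6.15 points. The Pou2f1 neighbour had 16.7, 26.6 and 19.9 in DTx libraries, against 39.9, 35.7 and 42.6 in untreated libraries, a difference of −18.4 ± 8.05 points. Both overlapped between groups in the deposited lists. The region fit recovered 22.0% of simulated shifts of 20 points and 66.0% of shifts of 40 points. Regions near the top of the lists have no room for such a rise, and the shares do not apply to rises there. The Fli1 region chr9:32394629-32395205, with an untreated mean of 91.0 in equal-length lists, is one of these.

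**Figure D4:**
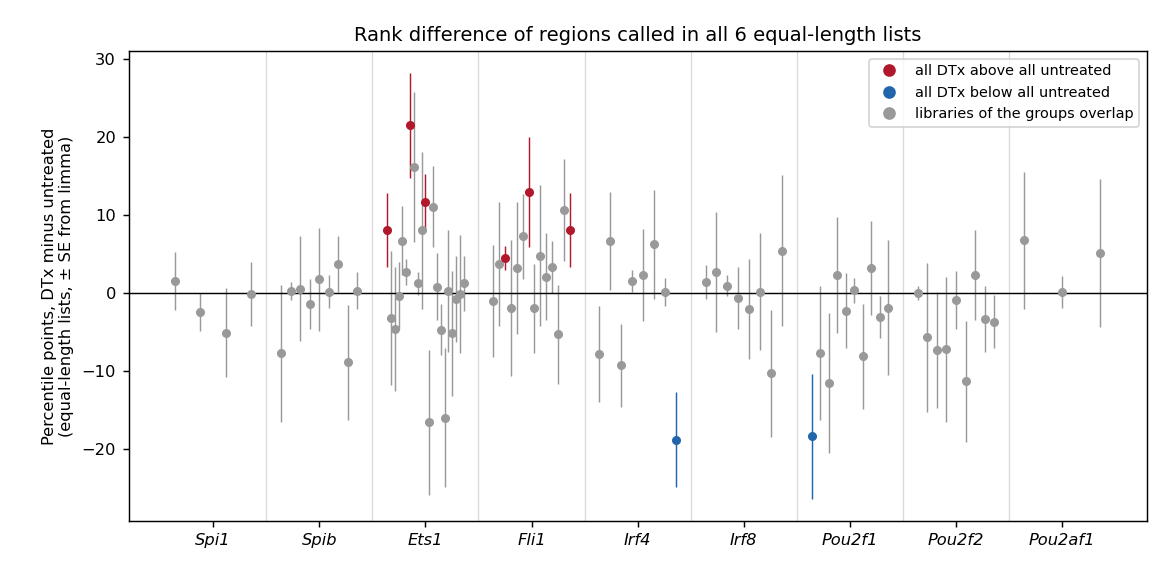
Difference of the equal-length percentile, DTx minus untreated, at each region called in all 6 equal-length lists, by gene and in order of position, ± SE from limma; red and blue mark regions where all DTx libraries stand above or below all untreated ones. The red points are at Ets1 and Fli1 only, where the region between the genes is drawn at both, and no region passed an adjusted p of 0.05.

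Relatives and partners of these factors were read in the same way at their gene ends, as counts. Of 22 other ETS genes 17 had such a peak in every library, 2 in some and 3 in none, and of 7 other IRF genes it was 6 in every library and 1 in some. Of 12 other POU genes 3 had one in all 6 and 7 in none. Among 10 partners and other B-lineage factors, such as Tcf3 and Pax5, it was 8 in all 6 libraries and 1 in none, and among 15 genes reported as targets of the factors 12 in all 6 and 2 in none. The limma fit took in 17 of the other ETS genes, 5 of the IRF genes, 2 of the POU genes, 8 of the partners and 12 of the targets. None of these passed it in either direction, beside 0% of all genes fitted, and the rest were not tested. Numbers of libraries differed at Etv2 (2 DTx and 1 untreated), Fev (0 and 1), Irf5 (0 and 1), Pou3f1 (3 and 2) and Ikzf1 (2 and 3), each by 1 library.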

How the data were processed

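Per the submitters' processing notes, the tools were Trim Galore 0.4.3 for trimming, Bowtie2 2.3.2 for alignment to mm10 and MACS2 2.1.1 for peaks, called per library. Not given in the sources used here are any shift of read ends for the Tn5 cut and any removal of duplicates, and either would move peak edges and scores. Each deposited list gives, per the file headers, the position of a peak, its length in bp, its pileup (a coverage signal) and its fold enrichment over background (a ratio). The deposited −log10 p-value and −log10 q-value have damaged headings and were identified by column order and values. Coordinates are 1-based.

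Peaks of the 19 autosomes and both sex chromosomes were merged over the 6 lists into regions, and a library has a region where a peak overlaps it by at least 1 bp. The gene table (RefSeq, GRCm38.p6) has no strand or exons, so gene ends stand in for promoters, and exons, introns and UTRs were not told apart. Gene-end and region ranks were fitted with limma 3.58.1 (trend, robust) in R 4.3.3 with Benjamini-Hochberg adjustment at 0.05 over all genes or regions fitted, after tests on simulated data. Other steps used Python 3.11.15, NumPy 2.4.6, pandas 2.3.3 and SciPy 1.17.1. A rank is relative to the list, so a shift of all peaks is not seen. Text names all 9 genes, the highest-ranked region at each gene's ends and away from the ends of any gene, group-only regions, and listed relatives whose number of libraries differs. The genes, lists, motifs and tests were chosen with earlier results of these data known. Alternatives varied the list length, windows, q minimum, overlap, score, list layout and left-out libraries. A further B cell marker is not reported here.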

Additional observations from a re-analysis of the deposited data

How the results depend on the processing

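The absence of regions found in DTx libraries only (0 at the 9 genes) changed to 1 in equal-length lists, to 1 where peaks had to cover at least 0.5 of a region, and to 28 in the broad-mode lists alone (2 libraries against 2, where 11.8% of all regions qualify). Leaving out 1 library gave 0 to 9, with 9 when DTx replicate 1 was dropped and 7 when untreated replicate 3 was, the narrow-mode lists. The share of all regions with 1 library left out is not given here, so these counts do not set the 9 genes apart. For untreated libraries only (0), equal-length lists gave 2 and leaving out any 1 library 0. The difference in genes with a gene-end peak (−0.667 genes, DTx minus untreated) was −1.33 in equal-length lists, 0 within 500 bp, 0 at a −log10 q of at least 5, 0 in broad-mode lists and −2 in the narrow-mode pair, and −0.833 to −0.333 without 1 library. The difference in peaks around the genes (0.667) was 22 in deposited lists, 16.7 at a −log10 q of at least 5, 8 in broad-mode lists and −14 in the narrow-mode pair, and −2.33 to 5.67 without 1 library. The cause of these shifts was not tested. Under every alternative run, the gene-end fits called 0 of the 5 genes fitted, or of 8 where an absent peak was set to 0. Fli1 was in none of these fits. The region fits called 0 of the 85 regions fitted at the 9 genes. Over the series, the gene-end fits called 0 genes, except 1 of 10172 without DTx replicate 3, and the region fits called 0 regions. The sign of the gene-end difference held in 13 of 13 alternatives at Irf4 and Pou2f1, 12 at Spi1, 9 at Pou2af1 and 8 at Irf8, with adjusted p of limma between 0.533 and 1. Among these alternatives, the replicate block and the fit without the filter leave the difference at these genes unchanged by construction.

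The deviations of same-numbered libraries had r over genes of 0.16, 0.14 and −0.13, and those of differently numbered ones lay between −0.42 and 0.41. List layout differs within pairs 1 and 3. Whether the numbers pair the samples therefore cannot be told from these values. With the replicate number as a block the limma fits called 0. The mean differences of −0.667 and 0.667 cannot change with this block, because each number holds 1 library of each group. Region by region, the replicate block gives counts per pair: 17, 40 and 36 regions in the DTx library alone and 14, 3 and 12 in the untreated library alone for pairs 1, 2 and 3. The DTx list was the longer one in every pair, and a longer list alone gives more regions. The shares of all regions per pair are not given here, so these counts show no trait of the 9 genes. Unknown depth and 3 libraries a group limit what these lists can show: a small change in openness, or one that leaves the rank in place, would not be seen.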

Other observations

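Away from these regulators, the genes most alike in gene-end rank were found by the mean absolute difference of the equal-length percentile over the 6 libraries, among 10172 genes. For Spi1 they were 2310057M21Rik (1.33 points) and Arhgap18 (1.47 points). For Irf4 they were Ostf1 and Nmrk1, both at 1.87 points, and for Irf8 Zfp598 (1.38 points) and Ddx39b (1.42 points). For Pou2f1 they were Capza2 (0.805 points) and Rpl21 (0.970 points), and for Pou2af1 Skiv2l and Nelfe, both at 0.725 points. The genes of the pairs Ostf1 and Nmrk1 and Skiv2l and Nelfe have equal values. This likeness describes ranks in 6 libraries.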
